A study of Mus musculus with 9 samples.

Results

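The comparison set mouse cells given SE-BDEV, brain-derived extracellular vesicles named for status epilepticus (a seizure that does not stop by itself), against cells given vehicle. Its members are the genes of the deposited table of these groups that averaged at least 1 FPKM (a level in sequenced fragments, corrected for transcript length and library size) over the 6 libraries. They number 10535 of 24318 genes. A single gene, Fth1, the ferritin heavy chain, was left out because the authors' table marks it as having too many reads to test: it is listed at 0 in all 3 SE-BDEV libraries and at 13092 to 14542.7 FPKM in the Vehicle libraries. Ftl1, the ferritin light chain, was measured in all 6, at 12081.8 to 12605.4 FPKM with Vehicle and 13323.7 to 14356 FPKM with SE-BDEV (chosen after its values were seen).

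The series holds 9 polyA-selected, strand-specific RNA libraries, with 3 in each of the groups SE-BDEV, CON-BDEV and Vehicle. In the library names the SE-BDEV samples are "EV Pilo" and the CON-BDEV samples "EV Saline"; dose, exposure time and the animals behind the vesicles are not given in the sources used here. The design text says that the treated cells were BV2, a line of immortalized mouse microglia, while the sample labels say N2a, a mouse neuroblastoma line. In these 6 libraries 27 of 30 microglia and macrophage markers averaged at least 1 FPKM, with a summed level of 4486 to 5140 FPKM per library, and among the neuroblastoma and neuron markers 5 of 30 did. Of the latter, 14 are listed at 0 in all 6 libraries, among them Th, Dbh, Mycn and Snap25. The 5 above 1 FPKM were Uchl1, Nefh, Ina, Elavl4 and Gata3, at means of 85.4, 78.2, 10.1, 3.81 and 3.39 FPKM. The summed level of that list was 169 to 193 FPKM per library. The 3 microglia and macrophage markers under 1 FPKM were Cx3cr1, P2ry12 and Siglech. Taken as whole lists, the markers go against the label N2a.  The labels do not say that replicates were separate cultures. The p-values set the difference between groups against the variation of these libraries within groups, and that variation may be only technical.

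Microglia are the resident macrophages of the brain and take up vesicles and debris. As background, macrophages that meet oxidants, heme or oxidized lipid stabilize the transcription factor NRF2, which binds antioxidant response elements and raises genes for glutathione synthesis, peroxide removal and heme breakdown. Cells that take in cholesterol keep the SREBP transcription factors in the endoplasmic reticulum, which lowers the genes for making sterols and fatty acids. Pattern recognition receptors that signal through NF-kB raise cytokines and chemokines.

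SE-BDEV against Vehicle asked what these vesicles did to the cells' transcripts. In all, 1253 of 10535 genes passed the test, which is 11.9% of those tested: 712 were higher (6.76%) and 541 lower (5.14%). Calls rest on limma, a linear model over log2(FPKM + 1), at an adjusted p under 0.05. Of the 27 kept microglia and macrophage markers 12 were higher and 1 was lower, and of the 5 kept neuroblastoma and neuron markers 3 were higher (Uchl1, Gata3 and Elavl4, chosen after their values were seen) and 0 lower. Uchl1 was called in each of the 6 fits that left out a library, Gata3 was not called without SE-BDEV replicate 1 and Vehicle replicates 1 and 3, and Elavl4 was called in none of the 6. The changes were mostly small, and the middle size among called genes was 0.25 (median of the absolute log2 fold change). Of the called genes 19 had a log2 fold change of at least 1, all of them higher, and 0 had one of -1 or below. On the ratio of mean FPKM, 27 called genes were at least 2 times higher and 5 were at 0.5 or lower. The values of the 2 groups did not overlap in 1251 of the called genes, and in 32.8% of all kept genes. Calls made up 7.33% of genes at 1 to 5 FPKM, 10.6% at 5 to 20, 15.1% at 20 to 100 and 14.4% at 100 or more. Leaving out Vehicle replicate 1, 2 or 3 gave 501, 601 or 678 calls, leaving out SE-BDEV replicate 1, 2 or 3 gave 889, 877 or 1311, and 431 genes (4.09%) were called in all 6 of these fits. The authors' deposited table had a q under 0.05 for 562 of the kept genes (5.34%), of which 483 were also called here with the same sign and 0 with the opposite sign.

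**Figure D1:**
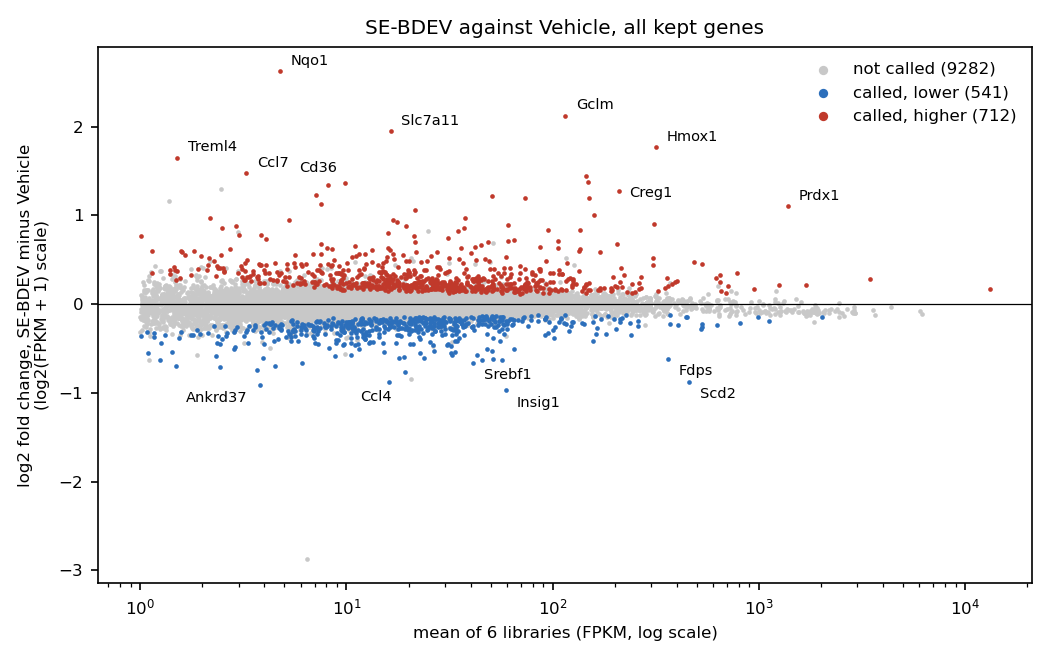
Each point is a kept gene, with the mean FPKM of the 6 libraries on a log axis and the log2 fold change of SE-BDEV over Vehicle on the vertical axis. The 712 genes called higher reach 2.62 (Nqo1) and the 541 called lower reach -0.97 (Insig1), and the lone grey point at -2.87 is Snora23, a small nucleolar RNA that was not called, except without Vehicle replicate 3 (-4.31) and with a replicate block (chosen after its values were seen).

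The gene lists below were chosen with earlier results of these data known, so their counts describe these libraries and are set against the 6.76% higher and 5.14% lower among all genes. The NRF2 and antioxidant list held 33 kept genes of 36: 22 rose, 1 fell and 10 were not called, with a median log2 fold change of 0.57 against -0.0008 for all kept genes. In the lysosome list 20 of 37 kept members rose, in the unfolded protein response list 15 of 32 and in the eicosanoid list 8 of 13. At the other end, 16 of 24 kept members of the cholesterol list fell and 0 rose, and 9 of 17 of the fatty acid list fell. For 43 subunits of oxidative phosphorylation, the respiratory chain and its ATP synthase, the count was 0 in both directions, with log2 fold changes of -0.099 to 0.12.

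**Figure D2:**
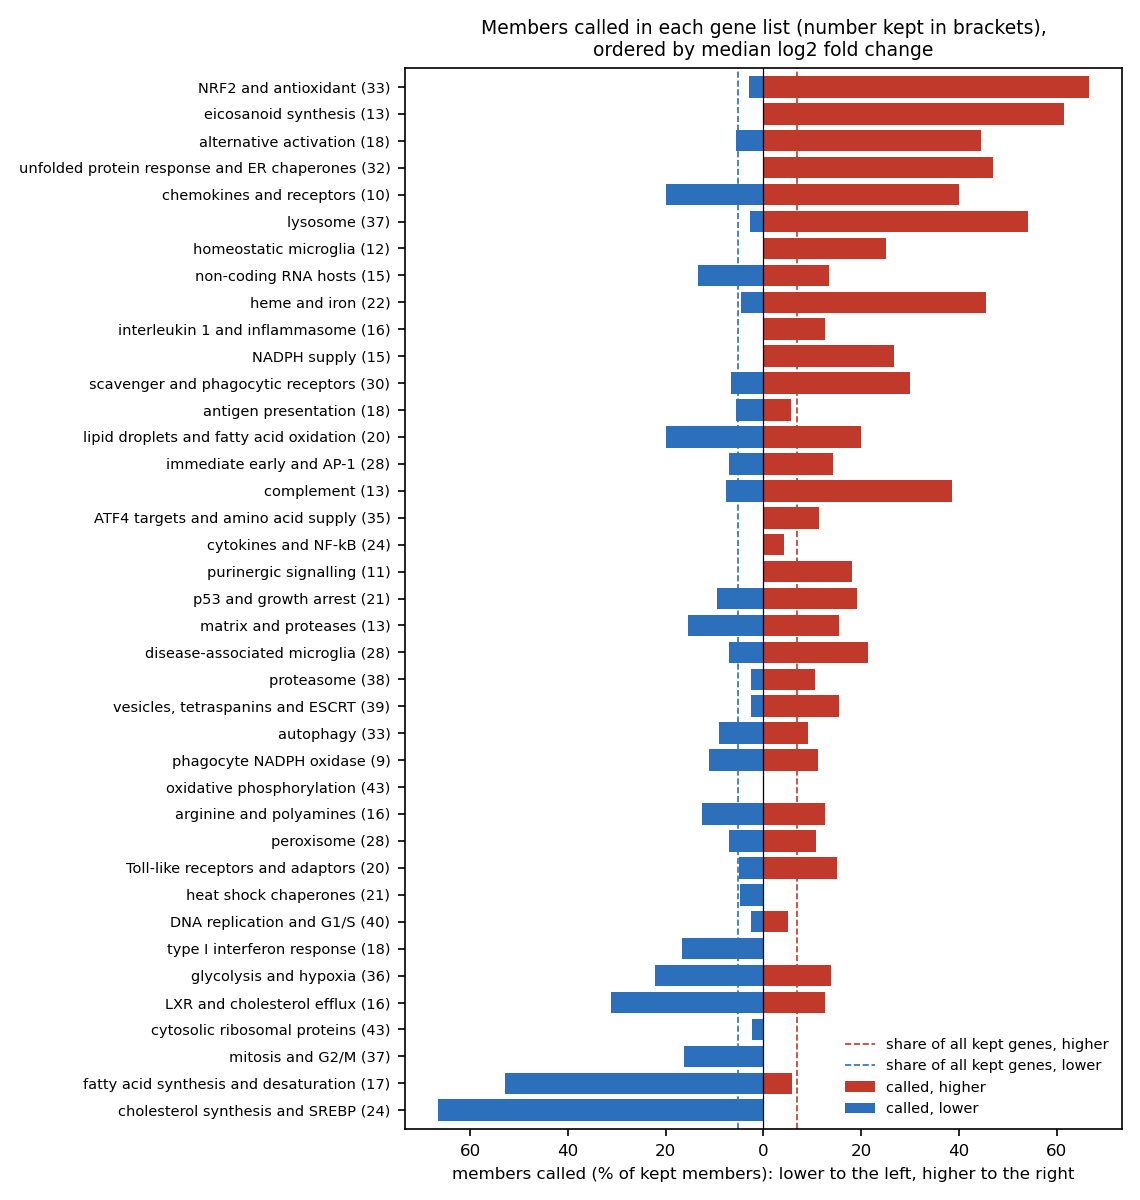
Bars give the percentage of each list's kept members that were called higher (right, red) or lower (left, blue) in SE-BDEV against Vehicle, and dashed lines give the 6.76% and 5.14% found over all kept genes. The NRF2 list lies at the top with 22 of 33 higher, and the cholesterol list at the bottom with 16 of 24 lower.

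The largest rises were in quinone and glutathione genes. Nqo1, a quinone reductase and a common marker of NRF2 activity (chr8:109780064-110082495, mm9, as the deposited table gives the locus), stood at 0.406, 0.597 and 0.816 FPKM in Vehicle replicates 1, 2 and 3 and at 7.51, 8.15 and 11.2 FPKM in the SE-BDEV replicates. The groups were far apart, and the log2 fold change was 2.62 (SE 0.139, adjusted p = 6.61e-06). On the log2(FPKM + 1) scale this understates the ratio of the means, which was 14.8. Nqo1 was under 1 FPKM in every Vehicle library, so it was kept only through its SE-BDEV values. The authors' deposited table gives Nqo1 a log2 fold change of 3.89 with q = 0.605, so their test did not call it. Gclm, the modifier subunit of the enzyme that joins glutamate to cysteine (chr3:121948475-121970133), measured 43.9, 39.9 and 42.8 FPKM with Vehicle and 166, 182 and 217 with SE-BDEV, a log2 fold change of 2.12 (SE 0.085, adjusted p = 2.12e-06). Slc7a11, the xCT subunit that brings in cystine (chr3:50168858-50247535), went from 6.02, 6.24 and 6.15 FPKM to 30.2, 26.8 and 23.1 FPKM, with a log2 fold change of 1.95 (SE 0.0818, adjusted p = 2.12e-06). SE-BDEV replicate 3 was the highest of the 3 for Nqo1 and Gclm and the lowest for Slc7a11, though still above every Vehicle library. The catalytic partner of Gclm, Gclc (chosen after its values were seen), rose less, from 36.7 ± 0.396 to 60.4 ± 3.15 FPKM (SD, n = 3 each).

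Several enzymes that remove peroxides or recycle thiols rose, and others of the same kind were not called. Cat, catalase, which splits hydrogen peroxide (chr2:103294061-103325310), was at 89.1, 89.6 and 92.6 FPKM in Vehicle and 204, 197 and 227 FPKM in SE-BDEV, a ratio of means of 2.32 (log2 scale SE 0.0518, adjusted p = 2.12e-06). Prdx1, a peroxiredoxin and among the most abundant transcripts of the list, stood at 852, 856 and 926 FPKM in the Vehicle libraries and 1826, 1868 and 1976 in the SE-BDEV libraries, a ratio of 2.15. Prdx1 and the other genes of this paragraph apart from Cat and Ptgr1 were chosen after their values were seen. Srxn1, which repairs overoxidized peroxiredoxins, rose by 0.89 on the log2 scale, Gsr, which recycles glutathione, by 0.72, and Txnrd1, which recycles thioredoxin, by 0.60. The conjugating enzymes Gstm1 and Mgst1 rose by 0.91 and 0.72, and superoxide dismutase Sod1 by 0.48. Ptgr1, a reductase of prostaglandins and lipid aldehydes, rose by 1.22 (SE 0.0611), from 30.1 ± 0.861 to 71.5 ± 6.65 FPKM. Gpx1, a selenium-containing glutathione peroxidase, was the single member of the list that fell, from 226, 213 and 231 FPKM to 189, 172 and 193 FPKM (log2 fold change -0.28, adjusted p = 0.00964). Txn1, Gss, Gpx4, Sod2 and Gstp1, which are thioredoxin, glutathione synthetase, a lipid peroxidase, the mitochondrial superoxide dismutase and a glutathione transferase, were not called, with log2 fold changes of 0.13, 0.11, -0.001, 0.15 and 0.52. Without SE-BDEV replicate 1 Txn1 and Sod2 were called higher (0.18 and 0.19), and without Vehicle replicate 3 so was Gstp1 (0.76). The calls over all 6 libraries named in this paragraph were also made in each of the 6 fits that left out a library.

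Transcripts of the pathway's own regulators gave a mixed picture. Nfe2l2, which encodes NRF2, averaged 98.3 ± 1.42 FPKM in Vehicle and 90.8 ± 8.68 FPKM in SE-BDEV and was not called (adjusted p = 0.24), but without SE-BDEV replicate 1 it was called lower (log2 fold change -0.19, adjusted p = 0.0168 by limma). Keap1, whose protein holds NRF2 for degradation, averaged 12.5 ± 0.547 and 12.1 ± 0.356 FPKM and was not called either. Bach1, a repressor at the same DNA elements, rose by 0.30 (SE 0.0468, adjusted p = 0.00445), and these 3 regulators were chosen after their values were seen. Sqstm1, the autophagy adaptor p62, which binds KEAP1, rose from 135 ± 3.15 to 203 ± 11.9 FPKM (log2 fold change 0.58, adjusted p = 0.000104).

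The stretches of DNA just upstream of these genes can be shown beside their values. In RefSeq promoter windows of assembly GRCm38.p6 (250 bases before to 50 after each gene's start), 28 of the 33 kept NRF2 list genes had an entry, and 10 of the 28 (35.7%) held the antioxidant response element core TGACNNNGC on either strand of at least 1 window (a gene with several starts has several windows). Counted the same way per gene, 3781 of all 27025 genes with a window held these letters, as did 17.1% of the 8519 kept genes (117 of 586 called higher, 67 of 419 called lower and 1275 of 7514 not called). Over single windows the share was 12.4% of 32851. Of the called NRF2 list genes with an entry 7 of 18 (38.9%) held the core. The NADPH list had it in 3 of 13 kept genes with an entry (23.1%), and the heme and iron list in 3 of 16 (18.8%). The windows below run 5′ to 3′ along the gene's strand for the 200 bases before its start, with the match in capitals, here always on the opposite strand. They are shown because each belongs to a called gene whose window holds the core: 4 of the NRF2 list and G6pdx of the NADPH list, chosen after their values were seen.
Gclm, chr3:122245357-122245556, plus strand: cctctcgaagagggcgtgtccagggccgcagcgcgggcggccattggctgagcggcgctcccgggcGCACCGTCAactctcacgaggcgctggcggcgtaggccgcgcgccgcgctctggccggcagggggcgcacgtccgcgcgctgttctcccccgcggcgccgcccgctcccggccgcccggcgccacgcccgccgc
Txnrd1, chr10:82859006-82859205, plus strand: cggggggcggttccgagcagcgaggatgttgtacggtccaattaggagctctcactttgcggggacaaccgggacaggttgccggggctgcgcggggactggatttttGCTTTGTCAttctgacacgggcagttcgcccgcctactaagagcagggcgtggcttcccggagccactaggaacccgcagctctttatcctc
Prdx1, chr4:116685399-116685598, plus strand: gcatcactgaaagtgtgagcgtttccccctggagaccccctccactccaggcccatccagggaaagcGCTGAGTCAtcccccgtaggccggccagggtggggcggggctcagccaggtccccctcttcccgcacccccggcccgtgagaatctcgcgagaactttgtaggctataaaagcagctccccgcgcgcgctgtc
Mgst1, chr6:138140327-138140526, plus strand: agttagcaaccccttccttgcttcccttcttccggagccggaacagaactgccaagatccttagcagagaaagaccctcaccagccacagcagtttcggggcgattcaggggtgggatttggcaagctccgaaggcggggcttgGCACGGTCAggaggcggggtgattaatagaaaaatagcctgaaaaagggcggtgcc
G6pdx, chrX:74428881-74429080, minus strand: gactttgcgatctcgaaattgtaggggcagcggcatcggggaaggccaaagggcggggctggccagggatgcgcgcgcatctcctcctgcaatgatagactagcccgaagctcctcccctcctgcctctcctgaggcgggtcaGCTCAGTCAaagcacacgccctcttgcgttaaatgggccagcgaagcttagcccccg
The capitals end 125 bases before the start in Gclm, 83 in Txnrd1, 124 in Prdx1, 47 in Mgst1 and 48 in G6pdx. The window of Nqo1 held no match, which says only that these letters are not within it. For the sterol response element TCACNCCAC, searched the same way, 0 of the 18 kept cholesterol list genes with an entry held a match in any window. Over all 27025 genes 388 (1.44%) held a match, and over the 8519 kept genes 1.36% did. At such low shares a count of 0 in 18 genes says only that these letters are not within those windows. In the fatty acid list 1 of 15 kept genes with an entry held a match.

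NADPH supply, which feeds glutathione and thioredoxin reduction, changed at selected steps: 4 of 15 kept members rose and 0 fell. G6pdx, glucose-6-phosphate dehydrogenase and the entry to the pentose phosphate pathway (chrX:71638630-71699117, mm9), was at 155, 156 and 160.0 FPKM in Vehicle and 246, 245 and 263 FPKM in SE-BDEV, a log2 fold change of 0.68 (SE 0.0385, adjusted p = 8.73e-06). Pgd, the next dehydrogenase, rose by 0.52, Taldo1, transaldolase, by 0.45, and Me1, cytosolic malic enzyme, by 0.77. Tkt, transketolase, was the most abundant member without a call, at 277 ± 3.78 and 292 ± 6.89 FPKM. The 4 calls were made in each of the 6 fits that left out a library.

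In the heme and iron list 10 of 22 kept members rose and 1 fell. The latter was Hmox2, the constitutive heme oxygenase (chosen after its values were seen), which was called in 1 of the 6 fits that left out a library, that without SE-BDEV replicate 1. Hmox1, heme oxygenase 1, which opens the heme ring and frees iron (chr8:77617517-77624492), stood at 136, 141 and 143 FPKM in the Vehicle replicates and 391, 418 and 681 FPKM in the SE-BDEV replicates. SE-BDEV replicate 3 was well above the other SE-BDEV libraries, and all 3 were above every Vehicle library (log2 fold change 1.77, SE 0.168, adjusted p = 0.000301). Slc48a1, a heme carrier of the lysosomal membrane, went from 75.3, 77.2 and 79.5 FPKM to 194, 199.6 and 245 FPKM, a log2 fold change of 1.44 (adjusted p = 6.61e-06). Blvrb, biliverdin reductase B, rose from 44.4 ± 0.731 to 103 ± 7.54 FPKM, and Cyb5a, the electron carrier cytochrome b5, which is outside the list, from 81.8 ± 4.56 to 215 ± 36.04 FPKM. Slc40a1, ferroportin, the iron exporter (chr1:45964915-45982439), measured 13.99, 13.7 and 13.02 FPKM with Vehicle and 25.4, 27.8 and 35.3 FPKM with SE-BDEV, and its order among the SE-BDEV libraries was that of Hmox1. Slc11a1, a metal transporter of the phagosome, rose by 0.84 (SE 0.0455, adjusted p = 6.76e-06).

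**Figure D3:**
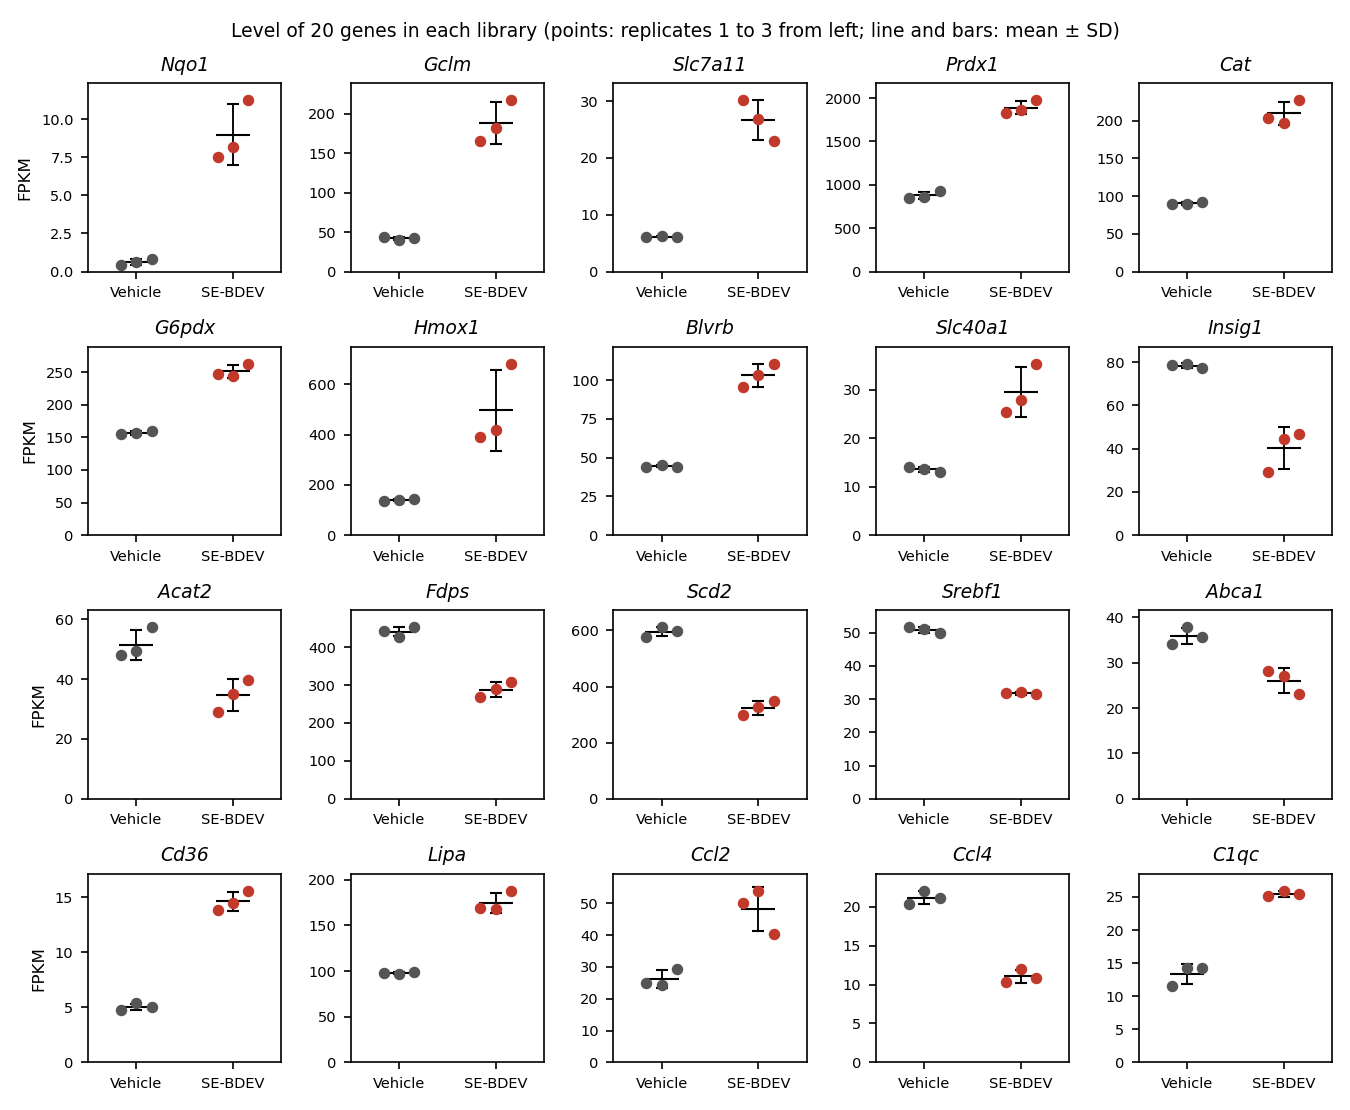
Points are FPKM in each library for 20 genes (grey, Vehicle; red, SE-BDEV; replicates 1 to 3 from left), with the mean as a line and the SD as bars, on axes that start at 0. In all 20 panels the 3 SE-BDEV values lie on the same side of the 3 Vehicle values. The 20 genes were chosen with their values known, so this follows from the choice. The groups did not overlap in 1251 of the 1253 called genes and in 32.8% of all kept genes.

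Genes of sterol synthesis fell. Of 24 kept members of the cholesterol and SREBP list, 16 fell, 0 rose and 8 were not called, with a median log2 fold change of -0.41. Insig1, which holds the SREBP complex in the endoplasmic reticulum and is itself a SREBP target (chr5:28397952-28405202), was at 78.7, 79.3 and 77.3 FPKM in Vehicle and 29.4, 44.7 and 46.97 FPKM in SE-BDEV, so that SE-BDEV replicate 1 was the lowest library. Its log2 fold change of -0.97 (SE 0.14, adjusted p = 0.0032) was the most negative of all called genes on the log2(FPKM + 1) scale. On the ratio of mean FPKM Insig1 stood at 0.515, and 5 called genes were at 0.5 or lower. Fdps, which makes farnesyl diphosphate (chr3:88897510-88905889), went from 443, 428 and 452 FPKM to 269, 289 and 307 FPKM, a log2 fold change of -0.61 (SE 0.0496, adjusted p = 0.00012). Pmvk, phosphomevalonate kinase, fell by 0.61 and Acat2, acetyl-CoA acetyltransferase at the head of the pathway, by 0.57 on the log2 scale. Mvd and Lss, the mevalonate diphosphate decarboxylase and the lanosterol synthase, fell by 0.53 and 0.54 and were chosen after their values were seen. Hmgcs1, which makes HMG-CoA, is listed at 0 in all 6 libraries and so is not a member. That 0 may be a failed estimate, as may the 0 of Fth1 in the SE-BDEV libraries, and this was not tested.

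Fatty acid synthesis fell too, with 9 of 17 kept members lower and 1 higher. Scd2, a stearoyl-CoA desaturase that adds a double bond to fatty acids (chr19:44368166-44381352), was at 578, 611 and 598 FPKM in Vehicle and 298, 327 and 349 FPKM in SE-BDEV, a log2 fold change of -0.88 (SE 0.0546, adjusted p = 1.71e-05). Srebf1, the SREBP that drives this branch, varied little within groups, at 51.5, 51.1 and 49.8 FPKM with Vehicle and 31.7, 32.2 and 31.4 FPKM with SE-BDEV (log2 fold change -0.66, adjusted p = 6.76e-06). Fasn, fatty acid synthase, Acly, which supplies its acetyl-CoA, and Acsl3, an acyl-CoA synthetase, fell by 0.51, 0.32 and 0.30. Abca1, the cholesterol efflux pump and a target of the oxysterol receptor LXR, fell from 34.2, 37.8 and 35.7 FPKM to 28.1, 27.1 and 23.00 FPKM (log2 fold change -0.45, adjusted p = 0.00492). In the LXR and efflux list 2 of 16 kept members rose and 5 fell. Its 5 lower calls shrank to 1 on leaving out SE-BDEV replicate 2 or either of Vehicle replicates 2 and 3, to 2 without Vehicle replicate 1 and to 3 without SE-BDEV replicate 3, and the 2 higher calls to 1 in every such fit but that without SE-BDEV replicate 3.

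In the list of lipid droplets and fatty acid oxidation 4 of 20 kept members rose and 4 fell, and 2 fell without each of the Vehicle replicates. Cpt1a, which commits fatty acids to the mitochondrion, stood at 12.4, 13.7 and 13.8 FPKM in Vehicle and 19.9, 19.1 and 21.5 FPKM in SE-BDEV (log2 fold change 0.56, adjusted p = 0.000475). The mitochondrial dehydrogenases Acadl and Acadvl rose by 0.31 and 0.25, and the fatty acid binding protein Fabp4 fell by 0.55. Lipg, an endothelial-type lipase of lipoproteins that is outside the list, fell from 5.76 ± 0.345 to 3.21 ± 0.707 FPKM.

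Libraries within SE-BDEV lay further apart in the cholesterol and fatty acid lists than in the NRF2 list. The median over the kept cholesterol list of log2(FPKM + 1) minus the Vehicle mean was -0.56, -0.39 and -0.29 in SE-BDEV replicates 1, 2 and 3. The fatty acid list gave -0.29, -0.22 and -0.16, in the same order. The NRF2 list was close to level, at 0.49, 0.53 and 0.54. Over all kept genes the medians were 0.003, -0.0007 and -0.005. In a principal component analysis of the 6 libraries the first component, 46.9% of the variance, split the groups, and the second, 22.0%, set SE-BDEV replicate 1 and Vehicle replicate 2 apart from the other libraries.

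**Figure D4:**
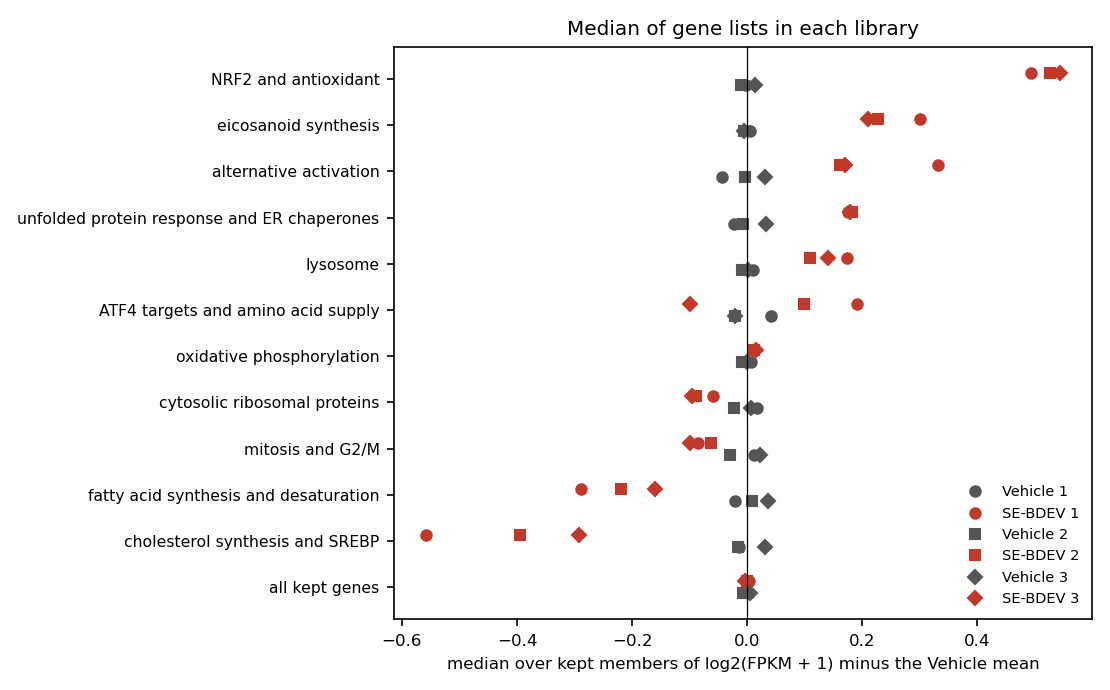
Each mark is the median over a list's kept members of log2(FPKM + 1) minus the Vehicle mean, for 1 library (grey, Vehicle; red, SE-BDEV; the shape gives the replicate). The cholesterol medians of the SE-BDEV libraries lie between -0.56 and -0.29, the NRF2 medians between 0.49 and 0.54, and the ATF4 medians spread from -0.10 to 0.19.

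Lysosomal and uptake genes rose by smaller amounts. Of 37 kept lysosome genes 20 rose and 1 fell, with a median log2 fold change of 0.14. Leaving out Vehicle replicate 1, 2 or 3 left 8, 7 or 9 that rose, and leaving out SE-BDEV replicate 1, 2 or 3 left 10, 17 or 15. Lipa, the acid lipase that frees cholesterol from LDL (chr19:34566806-34601964), was at 97.6, 96.5 and 98.5 FPKM with Vehicle and 169, 168 and 188 FPKM with SE-BDEV, a log2 fold change of 0.83 (SE 0.0461, adjusted p = 7.12e-06). Creg1, a secreted glycoprotein of the endosome and lysosome, was outside the list and among the 15 highest calls, at 121, 124 and 122 FPKM in Vehicle and 295, 278 and 318 FPKM in SE-BDEV. Scarb2, a membrane protein that carries glucocerebrosidase to lysosomes, rose by 0.40, Mitf, a factor that drives lysosome genes, by 0.35, and the endosomal tetraspanin Cd63 by 0.33. Naglu, a heparan sulfate hydrolase, was the member that fell, by 0.39 (adjusted p = 0.0015).

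Among 30 kept scavenger and phagocytic receptors 9 rose and 2 fell. Cd36, which binds oxidized LDL and fatty acids (chr5:17287508-17394777), stood at 4.78, 5.37 and 4.996 FPKM in Vehicle and 13.9, 14.5 and 15.6 FPKM in SE-BDEV, a log2 fold change of 1.37 (SE 0.0598, adjusted p = 2.12e-06). Marco and Msr1, class A scavenger receptors, rose by 0.55 and 0.49, and Itgav, the integrin alpha V chain, by 0.57. The members that fell were Fcgr4, an activating receptor for IgG, by 0.37, and Cd14, the lipopolysaccharide co-receptor, by 0.25.

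Chemokines moved in both directions: 4 of 10 kept members rose and 2 fell, and the counts were the same in each of the 6 fits that left out a library. Ccl2, which draws monocytes (chr11:81849079-81850954), was at 24.9, 24.2 and 29.3 FPKM in Vehicle and 50.2, 53.9 and 40.5 FPKM in SE-BDEV (log2 fold change 0.85, adjusted p = 0.00122). Its neighbour Ccl7 (chr11:81859214-81861025), also a monocyte attractant, went from 1.02, 0.926 and 1.74 FPKM to 5.95, 6.74 and 3.26 FPKM (log2 fold change 1.48, adjusted p = 0.00307), with SE-BDEV replicate 3 lowest of the treated libraries for both genes. Ccl24, an eosinophil attractant of alternatively activated macrophages, rose from 1.16 ± 0.299 to 3.21 ± 0.387 FPKM. Ccl4, a chemokine that macrophages release (chr11:83476086-83478185), fell from 20.3, 22.00 and 21.1 FPKM to 10.3, 12.02 and 10.8 FPKM, a log2 fold change of -0.88 (SE 0.059, adjusted p = 3.03e-05), and Ccl9 fell by 0.77.

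In the cytokine and NF-kB list 10 of 34 genes averaged under 1 FPKM and were not tested. Of the 24 kept members 1 rose and 0 fell, against 11.9% called over all genes. That member was Saa3, an acute-phase protein, with a log2 fold change of 0.28 (adjusted p = 0.0198), and its call was not made without SE-BDEV replicate 1 and Vehicle replicates 1 and 2. Tnf, chosen after its values were seen, stood at 8.52, 8.42 and 8.97 FPKM in Vehicle and 8.54, 9.29 and 8.81 FPKM in SE-BDEV and was not called (adjusted p = 0.692). In the interleukin 1 and inflammasome list 2 of 16 rose: Il1b, from 5.28, 5.30 and 4.97 FPKM to 7.80, 6.76 and 7.93 FPKM, and Casp1, the protease that activates it, from 38.3, 40.3 and 44.3 FPKM to 55.5, 60.3 and 57.1 FPKM. Without SE-BDEV replicate 3 the number that rose was 4. Of 20 kept Toll-like receptors and adaptors 3 rose and 1 fell, with a median log2 fold change of -0.02; 1 rose without each of the Vehicle replicates, 2 without each SE-BDEV replicate, and 3 fell without SE-BDEV replicate 3. Tlr7, an endosomal sensor of single-stranded RNA, rose by 0.49 (SE 0.0661, adjusted p = 0.00217). Of 18 kept type I interferon response genes 3 fell and 0 rose, led by Ifitm3, an antiviral membrane protein, from 32.5, 29.7 and 32.3 FPKM to 20.9, 20.1 and 23.9 FPKM (log2 fold change -0.52, adjusted p = 0.00134). The number that fell was 1 without SE-BDEV replicate 2 and without each Vehicle replicate, and 1 gene rose without Vehicle replicate 1.

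All 3 chains of C1q, the complement starter that microglia make, were higher. C1qc (chr4:136445717-136448829) was at 11.6, 14.2 and 14.3 FPKM with Vehicle and 25.1, 25.9 and 25.4 FPKM with SE-BDEV, a log2 fold change of 0.88 (SE 0.0719, adjusted p = 0.000124), and C1qb rose by 0.50. C1qa was low, at 0.469, 0.211 and 0.806 FPKM and 1.28, 1.48 and 1.78 FPKM, and was called (adjusted p = 0.011). Without any 1 of the SE-BDEV replicates its mean was under 1 FPKM and it was not tested. In the whole complement list 5 of 13 rose and 1 fell. Counts without single libraries ranged from 2 to 4 higher and were 0 lower in all 6 fits, with 2 higher without SE-BDEV replicates 1 and 2 and 3 higher without each Vehicle replicate.

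Eicosanoid genes, which make prostaglandins and leukotrienes, rose in 8 of 13 kept members and fell in 0. Ptgs2, the inducible cyclooxygenase (chr1:151947254-151955142), was at 1.74, 1.76 and 1.68 FPKM in Vehicle and 5.20, 4.03 and 3.05 FPKM in SE-BDEV (log2 fold change 0.88, adjusted p = 0.00374), with SE-BDEV replicate 1 highest. Mgst2, a microsomal enzyme that can join glutathione to leukotriene A4, rose by 0.97 (SE 0.0626), from 25.1 ± 1.24 to 50.1 ± 4.34 FPKM. Pla2g4a, the phospholipase that frees arachidonic acid, rose by 0.35, Ltc4s, leukotriene C4 synthase, by 0.52, and Ptgir, the prostacyclin receptor, by 0.35.

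Among genes of alternative activation, the state that interleukin 4 induces, 8 of 18 kept members rose and 1 fell, with a median log2 fold change of 0.23. The number that rose was 5 without Vehicle replicate 1 and without Vehicle replicate 2. Il4 itself, from outside that list, was among the 15 highest calls, at 3.30, 5.45 and 3.01 FPKM in Vehicle and 11.7, 9.09 and 10.2 FPKM in SE-BDEV (log2 fold change 1.23, SE 0.161, adjusted p = 0.0018). Arg1, arginase 1, a defining gene of that state, was the member that fell, from 19.4, 22.6 and 27.5 FPKM to 16.1, 13.8 and 14.5 FPKM (log2 fold change -0.60, adjusted p = 0.00835). Of 28 kept disease-associated microglia genes 6 rose and 2 fell, with a median log2 fold change of 0.02, and 1 fell without each of the Vehicle replicates. Among them the growth factor Igf1 rose by 0.25, while Lgals3, galectin 3, fell by 0.23. In the homeostatic microglia list 3 of 12 kept members rose and 0 fell, and 1 rose without each of the Vehicle replicates. Csf1r, the receptor that microglia need to survive, rose from 73.1 ± 4.13 to 88.3 ± 1.62 FPKM.

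In the list of the unfolded protein response and chaperones of the endoplasmic reticulum 15 of 32 kept members rose and 0 fell. Calr, calreticulin, rose from 654, 668 and 745 FPKM to 841, 860.3 and 928 FPKM (log2 fold change 0.35, adjusted p = 0.00567), and the disulfide isomerases P4hb and Pdia3 rose by 0.31 and 0.29. Hspa5, the master chaperone BiP and the list's most abundant member without a call, was at 317, 328 and 369.9 FPKM in Vehicle and 264, 327 and 361 FPKM in SE-BDEV. The 15 higher calls of this list of 32 became 10, 7 or 16 on leaving out SE-BDEV replicate 1, 2 or 3, and 5, 6 or 9 on leaving out Vehicle replicate 1, 2 or 3.

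SE-BDEV replicate 3 stood apart in the targets of ATF4, the factor that eIF2-alpha phosphorylation turns on. Of 35 kept members 4 rose and 0 fell, and without SE-BDEV replicate 3 the number that rose was 14. It was 3 without SE-BDEV replicates 1 and 2 and 2 without each Vehicle replicate. The list's median was 0.19, 0.10 and -0.10 in SE-BDEV replicates 1, 2 and 3. Trib3, a pseudokinase, was at 18.3, 15.2 and 15.6 FPKM in Vehicle and 47.03, 38.8 and 14.2 FPKM in SE-BDEV and was not called (adjusted p = 0.152). Ddit3, which encodes CHOP, was at 44.1, 34.5 and 33.2 FPKM and 95.4, 69.8 and 32.2 FPKM (adjusted p = 0.19), and Chac1, which degrades glutathione, at 2.32, 1.37 and 1.70 FPKM and 5.52, 5.14 and 1.87 FPKM (adjusted p = 0.0883). In each of these 3 genes, chosen after their values were seen, SE-BDEV replicates 1 and 2 were above every Vehicle library and replicate 3 lay within or near the Vehicle range. Without SE-BDEV replicate 3 all of them were called higher, with log2 fold changes of 1.34 for Trib3, 1.12 for Ddit3 and 1.19 for Chac1. A low library was also present in CON-BDEV, with Trib3 at 14.6, 46.2 and 39.7 FPKM in replicates 1, 2 and 3. Slc6a9, a glycine transporter and the list's largest call, rose in all 3 SE-BDEV libraries, from 11.7, 12.03 and 11.4 FPKM to 28.8, 22.4 and 19.1 FPKM (log2 fold change 0.92, adjusted p = 0.00144). Among immediate early and AP-1 genes 4 of 28 rose and 2 fell, and without SE-BDEV replicate 3 the number that rose was 8. It was 2 without Vehicle replicates 1 and 3, and the number that fell was 0 without SE-BDEV replicate 2 and without Vehicle replicate 2, and 1 without Vehicle replicate 1. Fos was at 11.4, 10.6 and 10.97 FPKM with Vehicle and 14.7, 18.3 and 14.2 FPKM with SE-BDEV (log2 fold change 0.47, adjusted p = 0.00812).

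Of 21 kept p53 and growth arrest genes 4 rose and 2 fell, and the 3 members of the Gadd45 family of stress-induced proteins were among them, moving both ways. Gadd45a was at 11.1, 11.7 and 10.5 FPKM in Vehicle and 24.9, 22.3 and 14.5 FPKM in SE-BDEV (log2 fold change 0.80, adjusted p = 0.0118), and Gadd45g at 29.01, 28.7 and 28.1 FPKM and 36.4, 43.04 and 44.6 FPKM (log2 fold change 0.51, adjusted p = 0.00193). Gadd45b fell from 26.4, 26.3 and 25.2 FPKM to 17.6, 18.99 and 22.2 FPKM (log2 fold change -0.39, adjusted p = 0.00951). SE-BDEV replicate 3 was the lowest of its group for Gadd45a and the highest for the other members. For the list, 2 rose without Vehicle replicate 2 and without Vehicle replicate 3, and 1 fell without SE-BDEV replicate 1 and without each Vehicle replicate.

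Glycolysis and hypoxia genes gave 5 higher and 8 lower of 36 kept. Bnip3, a mitophagy receptor induced by hypoxia, was at 38.95, 37.7 and 40.4 FPKM with Vehicle and 25.1, 25.6 and 27.1 FPKM with SE-BDEV (log2 fold change -0.57, SE 0.045, adjusted p = 0.000105). Ankrd37, another gene that hypoxia induces, fell from 4.48, 6.74 and 4.76 FPKM to 2.11, 2.43 and 2.43 FPKM, a log2 fold change of -0.91 (adjusted p = 0.00182). The authors' deposited table gives Ankrd37 q = 0.448, so their test did not call it. Higher calls numbered 0 on leaving out Vehicle replicate 1 or 2, 2 on leaving out Vehicle replicate 3 and 3 on leaving out SE-BDEV replicate 1, while the lower count ranged from 5 (without Vehicle replicate 1) to 10. Of 37 kept mitotic genes 6 fell and 0 rose, with Cdc20, an activator of the anaphase-promoting complex, going from 112 ± 2.87 to 93.7 ± 4.37 FPKM. Such calls numbered 2, 3 or 3 on leaving out Vehicle replicate 1, 2 or 3, and 4 on leaving out SE-BDEV replicate 3. Cytosolic ribosomal protein genes gave 0 higher and 1 lower of 43 (the 1 was called only without SE-BDEV replicate 3 when a library was left out), with log2 fold changes of -0.20 to -0.010 and a median of -0.085, which was -0.039 after quantile normalization.

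Other genes at the ends of the ranking belonged to none of these lists. Agt, angiotensinogen, was at 4.22, 4.20 and 4.06 FPKM in Vehicle and 13.6, 12.1 and 10.8 FPKM in SE-BDEV (log2 fold change 1.35, SE 0.0733, adjusted p = 6.76e-06). Treml4, a myeloid receptor of the TREM family, was near 0 without vesicles, at 0.257, 0.174 and 0.168 FPKM, and reached 2.09, 2.61 and 3.79 FPKM with SE-BDEV (log2 fold change 1.65, adjusted p = 0.000191). Treml4 was among the kept genes only through the SE-BDEV libraries, the group where it was high. Esd, an esterase that ends glutathione-dependent removal of formaldehyde, rose from 105 ± 0.433 to 213 ± 12.5 FPKM, Gbe1, the glycogen branching enzyme, from 11.2 ± 0.383 to 22.5 ± 0.916 FPKM, and Pcx, pyruvate carboxylase, from 16.2 ± 0.274 to 26.99 ± 1.09 FPKM, and these 3 genes were chosen after their values were seen. On the lower side, Tuba1a, a tubulin alpha chain, was at 56.5, 54.5 and 55.7 FPKM with Vehicle and 33.3, 34.9 and 38.7 FPKM with SE-BDEV (log2 fold change -0.63, adjusted p = 0.000168), though reads of near-identical tubulin genes may be split between them. H1f0, a linker histone of resting cells, fell by 0.63, and F13a1, the coagulation factor XIII A chain that macrophages also make, by 0.75. Scgb1a1, a secretoglobin, was low, at 1.72 ± 0.327 and 0.768 ± 0.286 FPKM, and its call (adjusted p = 0.0175) was not made without SE-BDEV replicate 2 and Vehicle replicates 1 and 3. Ifi27l2a fell by 0.66, but the files give it the same coordinates as Ifi27, so their reads may be shared. In the authors' deposited table q was 0.269 for Scgb1a1 and 0.418 for Ifi27l2a, so neither was called there.

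SE-BDEV against CON-BDEV asked whether vesicles of the status epilepticus group differed from those of controls, in a fit over all 9 libraries joined through the shared Vehicle libraries. Of 10532 genes tested 0 passed (0%), with a lowest adjusted p of 0.111, and 509 had an unadjusted p under 0.05 by limma. Of these, 131 were higher and 377 lower in SE-BDEV among the genes also kept against Vehicle. With no difference at all, a share of about 0.05 of the tested genes would have an unadjusted p under 0.05 by limma. The 95% intervals of this difference had a median width of 0.263 on the log2 scale. Among genes called in SE-BDEV against Vehicle, 1251 had an interval here, and for 1233 of them (98.6%) it lay within -0.5 to 0.5, for 958 (76.6%) within -0.25 to 0.25. CON-BDEV against Vehicle called 597 genes (5.67%; 3.81% higher and 1.86% lower), but both comparisons use the same Vehicle libraries, so their values are only set side by side: the log2 fold change was 2.12 and 2.03 for Gclm, 1.77 and 1.65 for Hmox1, -0.97 and -0.86 for Insig1, and -0.88 and -0.86 for Scd2, with SE-BDEV first. The direct difference of SE-BDEV minus CON-BDEV was 0.13 (95% interval -0.38 to 0.65) for Nqo1, 0.089 (-0.28 to 0.46) for Gclm, -0.11 (-0.46 to 0.23) for Insig1 and -0.006 (-0.28 to 0.27) for Ccl2.

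The gene nearest to a difference between the vesicle groups was Srp54a, a subunit of the signal recognition particle (chr12:56256091-56365681). It was at 2.06, 2.21 and 1.94 FPKM in Vehicle, 1.88, 2.12 and 2.17 FPKM in CON-BDEV and 0.773, 1.14 and 0.77 FPKM in SE-BDEV, so only the SE-BDEV libraries were low. Its difference was -0.70 (95% interval -0.90 to -0.50, unadjusted p = 1.05e-05, adjusted p = 0.111). The deposited table gives Srp54b and Srp54c the same coordinates, so reads may be split between these genes. The other genes lower in SE-BDEV with the lowest p were Cox7a1, a cytochrome oxidase subunit (-0.54, -0.75 to -0.34), Coprs, Rpp21 and Hypk, at -0.28, -0.37 and -0.18. Those higher were Ugt1a6b, a glucuronosyltransferase whose exons are shared with its family (0.48, 0.22 to 0.75), Zfp467, Morn2, Ago3 and Clk2-scamp3, at 0.42, 0.29, 0.28 and 0.23. None of these 10 had an adjusted p under 0.05 by limma.

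**Figure D5:**
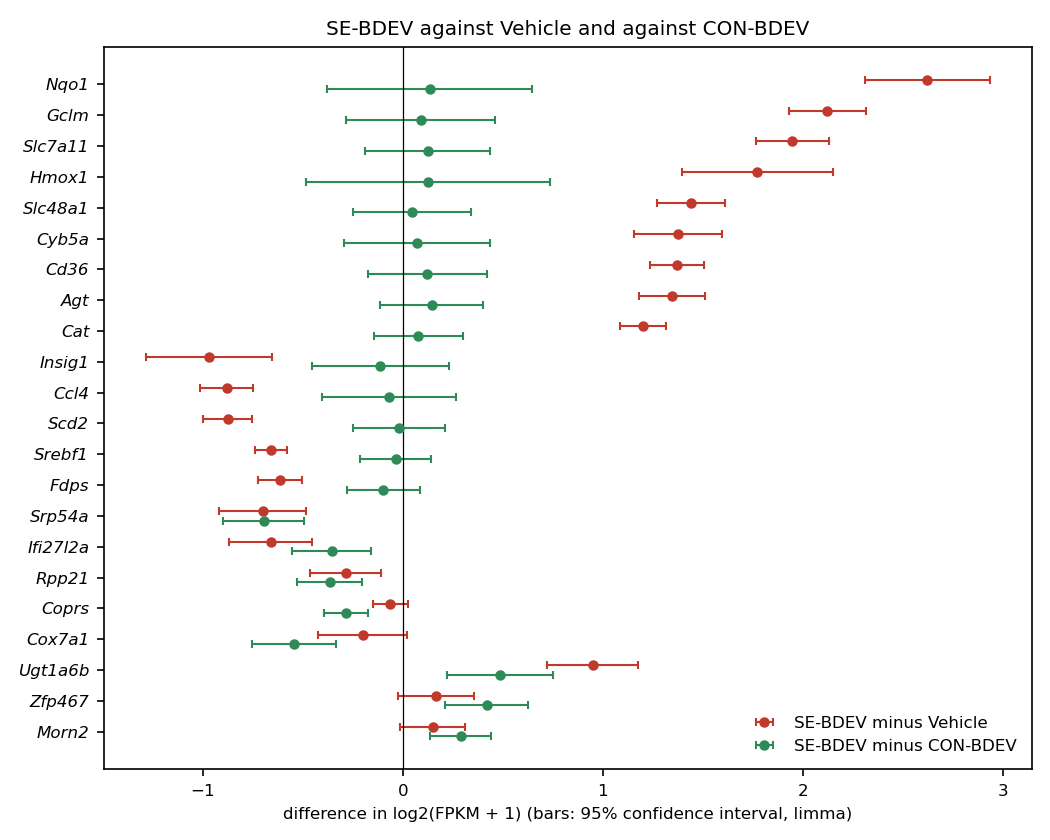
Points are differences in log2(FPKM + 1) with 95% confidence intervals, for SE-BDEV minus Vehicle (red) and SE-BDEV minus CON-BDEV (green). For the genes from Nqo1 down to Fdps the green intervals include 0, and Srp54a has a green value of -0.70.

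Depth was even across the comparison. From the steps between low FPKM values the 6 libraries held an estimated 29.5 to 33.4 M fragments (M, 1e6), so 1 FPKM in a transcript of 2 kb stood for 58.9 to 66.8 fragments. Each library had 10516 to 10561 genes at 1 FPKM or more, and summed FPKM without both Fth1 and Ftl1 ran from 586293 to 598795. In bulk RNA, fewer cells with a transcript and less of it per cell cannot be told apart. Of the markers of other brain cells, 1 of 12 astrocyte markers, 2 of 12 oligodendrocyte markers, 1 of 13 endothelial and blood markers and 4 of 19 synaptic markers averaged at least 1 FPKM. Those above it included Aldoc, Flt1, Camk2a and Cnp, which other cells also express, and the summed level per library ran from 36.4 to 46.02 FPKM for the astrocyte list, 12.2 to 14.5 FPKM for the oligodendrocyte list, 35.5 to 47.5 FPKM for the endothelial and blood list and 29.98 to 32.5 FPKM for the synaptic list. Their part in the results was not tested. Gria1, Gria2, Grin1 and Gad1 are listed at 0 in all 6 libraries.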

How the data were processed

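PolyA-selected RNA of 9 libraries was sequenced. The submitters' processing notes name TopHat2, Cuffdiff and the build mm9 (versions not given in the sources used here). The deposited FPKM values, 1 table per vesicle group with the Vehicle libraries in both, are normalized for length and depth by the authors, and per the file headers each table has a Cuffdiff table with mean FPKM, log2 fold changes, test statistic scores, p-values and q-values from the authors.

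Genes averaging at least 1 FPKM over the 6 libraries were kept, and 1 gene marked HIDATA by the authors was left out. A gene under 1 FPKM in 1 group could be kept through the other group alone. Values were tested on log2(FPKM + 1) with limma 3.58.1 (R 4.3.3; lmFit, eBayes with trend, 2-sided), and p-values were adjusted over all kept genes by Benjamini-Hochberg, with a threshold of 0.05. No covariate was used. For SE-BDEV against CON-BDEV the tables were joined by a factor of 1.00044 taken from the shared Vehicle libraries. FPKM are not counts, so no count model was fitted. An exact permutation test of 1 gene between groups of 3 could reach no p under 0.1. On simulated data of this comparison (10535 genes), 56% of genes changed by 1.2-fold, 90% by 1.5-fold and 100% by 2-fold or 3-fold were called, with 12 false calls among 10335 unchanged genes. These folds are of FPKM + 1, so for genes of low FPKM they stand for larger changes in FPKM. Noise was drawn independently for each gene, so shifts that many genes of a library share were not simulated. The shares and false calls hold for that setting only.

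The genes, lists and tests were chosen with earlier results of these data known. Named genes are the 15 highest and 15 lowest calls whose groups do not overlap, up to 5 called members per list with the largest change (or, where none is called, the 2 most abundant), each list's most abundant member without a call, and the 5 lowest p in each direction between the vesicle groups; clone-named, predicted and multi-gene entries were passed over. Values of a few genes are not reported here.

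Positions of genes are those of the deposited tables (mm9). Promoter sequences are from RefSeq (GRCm38.p6), matched by symbol. Relative depth was taken from the most common ratio of FPKM values under 0.05 between libraries. Fragment numbers were then estimated from the spacing of FPKM values in 8 genes with 1 annotated transcript and exons of at least 4000 bases. Between the quartiles of these genes the estimate ran from 30.9 to 33.4 M (M, 1e6) for 1 library.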

Additional observations from a re-analysis of the deposited data

How the results depend on the processing

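The count of 1253 genes was 726 with no filter on low values, 830 with all 9 libraries in 1 fit and 562 by the authors' deposited q, and from 501 to 1311 when 1 library was left out. It was 1248 with 0.1 FPKM added in place of 1, 1172 with a minimum mean of 5 FPKM, 1226 after quantile normalization, 1230 with equal library medians and 1044 without the trend. With a replicate block it was 1060; the numbers do not pair the samples, as same-numbered SE-BDEV and Vehicle libraries deviated together at r = -0.16, -0.25 and 0.12, and a library correlated best with a same-numbered one in 3 of 9 cases. The count by blocking on the library names' leading number was 1017. Of the called genes, 56.8% were higher, against 51.7% after quantile normalization and 49.7% with equal medians. Between SE-BDEV and CON-BDEV the count of 0 became 1 without the trend (Srp54a), and ranged from 0 to 1 with 1 library left out (Srp54a without SE-BDEV replicate 2, and Hist1h2bh, a histone gene, without CON-BDEV replicate 1). Of 108 called genes named in the text, 84 kept their call and direction under every setting that tested them. By the authors' deposited q, 92 of the 108 were called in the same direction and 16 were not called. Ftl1 had a log2 fold change of 0.17 but 0 after quantile normalization, where it has the same rank in all 6 libraries. Gpx4, not called, was at -0.001, at 0.014 with the leading number as a block, at 0.00027 in the authors' deposited table and from -0.039 to 0.048 with 1 library left out (0.048 without SE-BDEV replicate 2, 0.019 without Vehicle replicate 1). Hspa5, also not called, was at -0.100, at 0.028 without SE-BDEV replicate 1 and from there down to -0.20 without SE-BDEV replicate 3. Of genes at 1 to 5 FPKM 7.33% were called, against 15.1% at 20 to 100 FPKM and 14.4% at 100 FPKM or more; whether read number sets this was not tested.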
